A study of Mus musculus with 9 samples.

Results

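Genes that build, remodel and mark scar tissue were followed in mouse liver carrying a human glucocorticoid receptor isoform, hGRβ. The set holds 10 genes of 27656 named on the array: the fibrillar collagens Col1a1, Col1a2 and Col3a1, the ligand Tgfb1, the stellate cell and myofibroblast markers Acta2, Lrat and Des, the collagenase Mmp13, the elastase Mmp12 and the metalloproteinase inhibitor Timp1. They were chosen by name, through the current or an older symbol of each gene spot, and 22 probes on the array carry those names. The comparisons ask whether genes of fibrosis differ between livers with and without the receptor isoform, and inflammation genes are given beside them. Liver of male C57BL/6 mice aged 3 months was measured on 9 single-colour arrays, 3 for each group. The groups were untreated wild-type liver, liver given a GFP vector built on adeno-associated virus (AAV-GFP), and liver given such a vector for the receptor isoform (AAV-hGRβ). The AAV-GFP group controls for the vector, and all groups share the same strain. The promoter of the vectors, their dose and the time between treatment and sampling are not given in the sources used here. Nothing in the labels says that the 3 samples of a group are separate animals, so p-values measure the spread between these samples, which may be technical.

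Hepatic stellate cells are the vitamin A storing cells of the space between hepatocytes and sinusoids, and are the main source of collagen in an injured liver. In their resting state they make Lrat, the enzyme that turns retinol into its stored ester, and they carry the intermediate filament desmin, encoded by Des. When activated, by transforming growth factor β among other signals, they become myofibroblasts that contract through α smooth muscle actin (Acta2) and lay down type I and type III collagen. Matrix is removed by metalloproteinases, among them the collagenase encoded by Mmp13 and the macrophage elastase encoded by Mmp12, and Timp1 encodes an inhibitor of these enzymes that myofibroblasts secrete.

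Probes are shown for the genes whose reading depends most on the probe used. The 3 Timp1 probes ordered the arrays differently, the Acta2 probe shown stands for that gene, and the Mmp12 probe is the only probe of its gene. All are 60 bases long, 5′ to 3′, as given in the array files, and the first Acta2 probe was not checked for sequence shared with other actin genes.
Timp1, A_52_P87713: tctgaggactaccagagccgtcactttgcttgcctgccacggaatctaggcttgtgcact
Timp1, A_51_P512379: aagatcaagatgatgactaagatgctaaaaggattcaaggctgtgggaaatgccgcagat
Timp1, A_51_P512384: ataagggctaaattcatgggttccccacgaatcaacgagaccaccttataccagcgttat
Acta2, A_51_P450957: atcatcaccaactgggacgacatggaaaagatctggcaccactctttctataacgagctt
Mmp12, A_51_P313674: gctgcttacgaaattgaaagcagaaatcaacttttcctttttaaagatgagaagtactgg
The array files place the Timp1 probes on the plus strand of chromosome X of mouse build mm7, at 19307699 to 19307758, 19305989 to 19306238 and 19305929 to 19305988. The Acta2 probe lies on the minus strand of chromosome 19 at 33949738 to 33952992 and the Mmp12 probe on the plus strand of chromosome 9 at 7352125 to 7352640. The second Timp1 probe, the Acta2 probe and the Mmp12 probe cover 250, 3255 and 516 bases of the genome, more than their own length. The Mmp13 probe (A_51_P184484) lies on chromosome 9 at 7280046 to 7280105, on the plus strand.

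The promoters of the 2 metalloproteinases share a short motif that was not found in the other members. RefSeq promoter windows of build GRCm38.p6 (250 bases before and 50 after the start site, 300 bases in all) were at hand for 9 of the 10 genes, with none for Col1a1. Each was searched for TGACTCA and TGAGTCA, which are the same site read on opposite strands and form the consensus of AP-1 factors. The stretches that hold it are shown because Mmp13 is the member that moved most. In both, capitals mark the motif.
Mmp13, chr9:7272434-7272513, plus strand: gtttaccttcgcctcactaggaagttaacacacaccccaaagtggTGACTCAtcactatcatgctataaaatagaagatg
Mmp12, chr9:7347319-7347348, plus strand: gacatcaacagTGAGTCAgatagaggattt
The motif lies 35 to 29 bases before the Mmp13 start site and 44 to 38 bases before the second of the 2 Mmp12 start sites. It was in 1709 of all 32851 promoter windows of that length, or 5.20%, and in none of the windows of the other 7 members. The match is a description of the sequence and shows no binding.

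Levels are log2 spot intensities from which the 75th percentile of the same array was subtracted, so that 0 is that percentile and a difference of 1 is a doubling. Levels of different probes are not comparable with each other. The share of gene spots that stood well above background was 54.0% to 82.0% per array, hepatocyte markers averaged between 7.75 and 8.33 on the 9 arrays, and the arrays were scanned on 2 days, with 1 array of each group on day 2. The fit tested 16792 genes, 9 of the 10 members among them, through limma with Benjamini-Hochberg adjustment over all genes at 0.05. For AAV-hGRβ against AAV-GFP 141 genes rose (0.84% of those tested) and 13 fell (0.0774%), 0.917% in all, and 77 rose and 18 fell with arrays scaled to their median. For AAV-hGRβ against untreated 435 rose (2.59%) and 133 fell (0.792%), 3.38% in all, and 329 rose and 258 fell with arrays scaled to their median. That scaling lowered the median of all genes from 0.03 to -0.32 for the former comparison and from 0.10 to -0.24 for the latter, so values close to 0 change sign with it. For AAV-GFP against untreated no gene passed (0%), with 1659 genes (9.88%) at an unadjusted p under 0.05. The fit treats the arrays as independent, although the day 1 arrays of each group shared a slide. With slide as a random block 75 genes passed for AAV-hGRβ against AAV-GFP and 58 for AAV-hGRβ against untreated.

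Among the fibrosis genes tested, Mmp13 gave the largest difference of AAV-hGRβ liver from both other groups. Its probe passed the filter through the AAV-hGRβ group alone, and the difference from AAV-GFP missed the threshold. Mmp13 was higher on each AAV-hGRβ array than on any other array, where its probe was mostly near background, while the collagens, Tgfb1, Timp1 and the stellate cell markers Acta2, Des and Lrat gave no difference that passed. Compared with AAV-GFP, 0 of the 9 members tested passed, against 0.917% of all genes, and 2 of 9, Mmp13 and Lrat, had an unadjusted p under 0.05, against 11.7% of all genes. Compared with untreated liver, Mmp13 passed as higher and the other 8 did not pass, against 3.38% of all genes in either direction and 2.59% that rose. The Mmp13 call depends on values near the detection limit. In that comparison 25.6% of all genes had an unadjusted p under 0.05. Between the AAV-GFP and untreated groups 0 of 9 passed, against 0% of all genes, and 2 of 9, Col3a1 and Timp1, had an unadjusted p under 0.05, against 9.88%. The median log2 difference of the 9 members from AAV-GFP was 0.24, beside 0.03 over all genes. It had no stable sign: it was -0.12 on scan day 1, 0.57 on day 2 and -0.16 under normexp correction, and without AAV-hGRβ replicate 1, 2 or 3 it was 0.029, 0.46 and 0.032. In bulk liver, fewer cells of a type and less RNA per cell cannot be told apart.

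**Figure D1:**
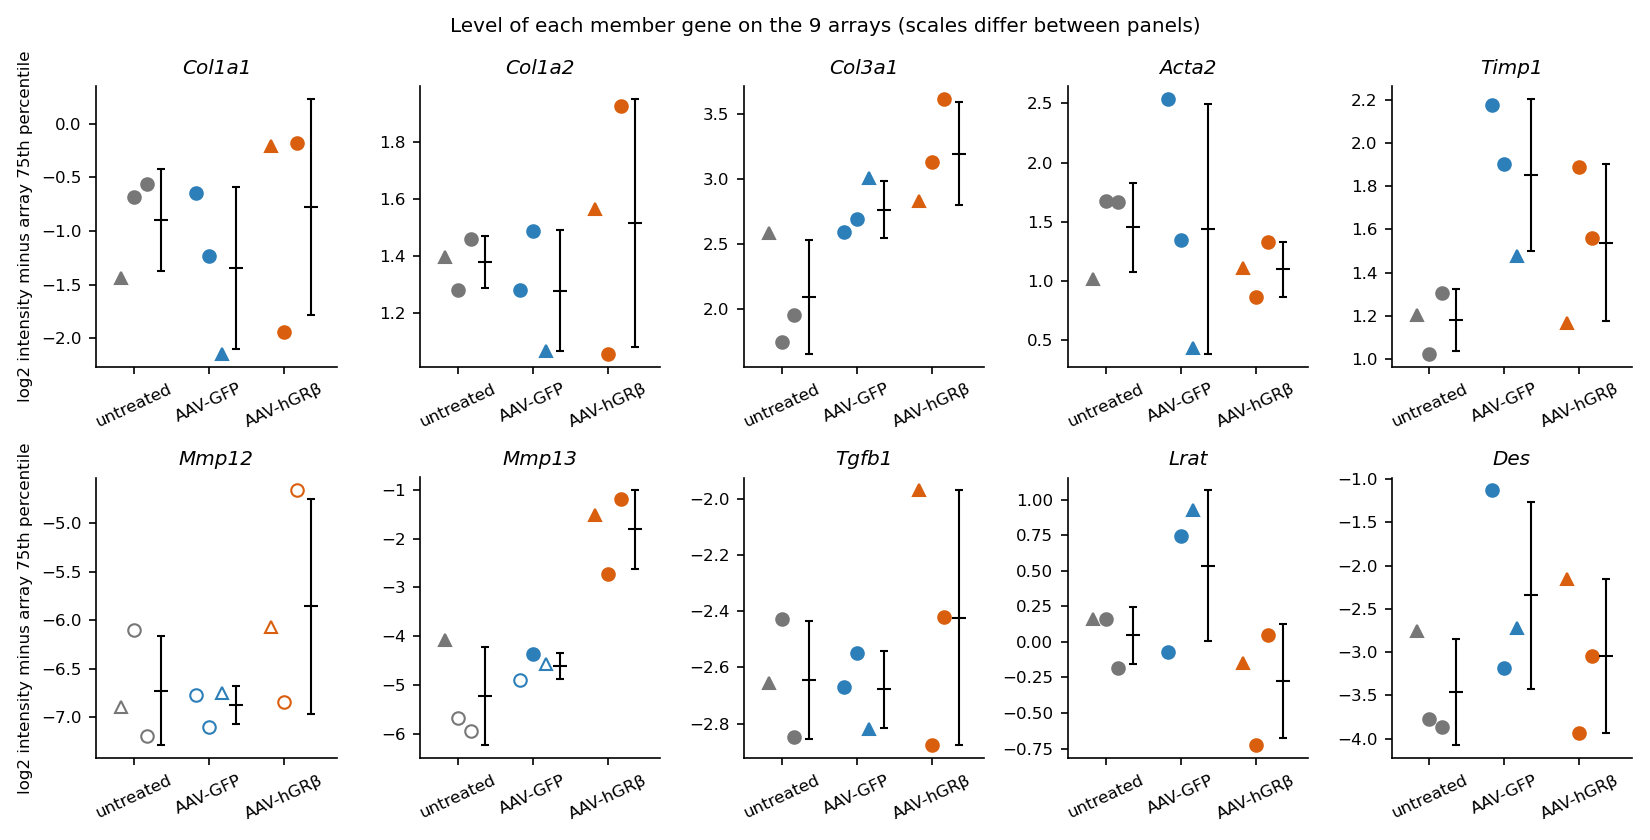
Log2 intensity minus the array's 75th percentile (vertical axes, which differ between panels) of each member gene on the 9 arrays, by group, with the group mean and SD (n = 3) as the black bar beside the points. Filled symbols are well above background and open ones are not, circles were scanned on day 1 and triangles on day 2. Mmp13 is the only panel in which the 3 AAV-hGRβ arrays lie above all 6 others, and Mmp12 has open symbols throughout.

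Mmp13, the collagenase, had 1 probe with 1 spot per array. On AAV-hGRβ arrays its level was -1.52, -2.72 and -1.20, with spot intensities of 180.6, 60.3 and 252.2, all well above background. On AAV-GFP arrays it was -4.89, -4.36 and -4.57, with intensities of 17.6, 23.4 and 14.2. Untreated arrays gave -4.08, -5.68 and -5.93. In each of those 2 groups only 1 array was well above background, so the probe was kept through the AAV-hGRβ group alone, and the differences below depend on values near the detection limit. The probes of the other 8 members tested were well above background on all 9 arrays, and with that as the filter Mmp13 would not be tested. The AAV-hGRβ group did not overlap with either, and Mmp13 was the 1 of 9 members whose vector groups were apart, against 15.9% of all genes. Against AAV-GFP the log2 difference was 2.80 (SE 0.53, 95% interval 1.60 to 3.99), and it missed the threshold (limma adjusted p = 0.0534). Against untreated liver it was 3.42 (SE 0.53, 95% interval 2.22 to 4.61), and it passed (limma adjusted p = 0.0151). AAV-GFP and untreated differed by 0.62 (limma adjusted p = 0.589). The difference from AAV-GFP was 2.67 on scan day 1 and 3.05 on day 2, and that from untreated liver 3.85 and 2.56. With scan day as a block the adjusted p from limma was 0.0275 and 0.00841. With slide as a random block it was 0.0968 and 0.0977, and without a filter on dim probes 0.18 and 0.0665, so both ended the call against untreated liver. The day 1 arrays of each group lay on a slide of their own. The call against untreated liver was lost without AAV-hGRβ replicate 3 (limma adjusted p = 0.0813), without untreated replicate 3 (0.0827) and without untreated replicate 4 (0.0694). Normexp background correction takes the local background of each spot and here added an offset of 50 to every intensity. Such an offset shrinks log2 differences of dim spots, and its part was not tested. With this correction the differences from AAV-GFP and from untreated liver shrank to 0.09 and 0.39. They were 1.20 and 1.50 after unusually bright local backgrounds were replaced by the array's median, with limma adjusted p = 0.0632 and 0.0107.

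Mmp12, the macrophage elastase, was not well above background on any of the 9 arrays and was not tested. Its spot intensity was at most 9.14 on untreated and AAV-GFP arrays and reached 22.9 on AAV-hGRβ replicate 3, while the other 2 AAV-hGRβ arrays gave 7.72 and 3.45. A change in Mmp12 was therefore not detectable with this probe, and no fold is given.

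Timp1, the inhibitor of these proteases, gave no difference that passed between the 2 vector groups. Its main probe gave 1.20, 1.02 and 1.31 in untreated liver, 2.18, 1.90 and 1.48 with AAV-GFP and 1.17, 1.89 and 1.56 with AAV-hGRβ. The untreated arrays lay below all AAV-GFP arrays, and the AAV-hGRβ arrays spanned both groups. The log2 difference of AAV-hGRβ from AAV-GFP was -0.31 (SE 0.24, 95% interval -0.87 to 0.24, limma adjusted p = 0.713), so a rise above 0.24 in log2 lies outside the interval. That of AAV-GFP from untreated was 0.67 (SE 0.24, limma adjusted p = 0.485), with 0.88 on scan day 1 and 0.27 on day 2. The dimmer probe A_51_P512384 gave 0.10 and 0.77 for the same comparisons, and neither passed. The third probe, A_51_P512379, was well above background on 4 arrays and was not tested. It was highest with AAV-hGRβ in replicate 1 (-1.73) and with AAV-GFP in replicate 3 (-2.10), arrays that lay on the same slide and scan day, against -3.47 or less elsewhere. The part of that slide in these values was not tested.

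None of the 3 collagens gave a difference that passed in the fit described above. Col1a1, the α1 chain of type I collagen, was at -1.44, -0.68 and -0.56 in untreated liver, at -0.65, -1.23 and -2.15 with AAV-GFP and at -0.21, -1.94 and -0.18 with AAV-hGRβ. Low and high arrays occurred in every group and the 3 groups overlapped. The array printed this probe 10 times, and the SD between those spots had a median of 0.096 per array, against SDs between arrays of 0.48, 0.76 and 1.01 in the untreated, AAV-GFP and AAV-hGRβ groups. The log2 difference of AAV-hGRβ from AAV-GFP was 0.56 (SE 0.54, 95% interval -0.66 to 1.79, limma adjusted p = 0.782), with -0.12 on scan day 1 and 1.94 on day 2, and it was -0.18 under normexp correction. Its other 2 probes were dim, failed the filter and gave 0.62 and 1.91.

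Col1a2, the partner chain of type I collagen, had the narrowest interval of the collagens. It stood at 1.40, 1.28 and 1.46 in untreated liver, at 1.28, 1.49 and 1.07 with AAV-GFP and at 1.56, 1.06 and 1.93 with AAV-hGRβ. The difference of AAV-hGRβ from AAV-GFP was 0.24 (SE 0.23, 95% interval -0.29 to 0.77, limma adjusted p = 0.791) and that from untreated 0.14 (limma adjusted p = 0.721). The upper bounds correspond to 1.70-fold and 1.59-fold, so a doubling lies outside both intervals.

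Col3a1, the type III collagen that is laid down early in a scar, was ordered untreated, AAV-GFP, AAV-hGRβ by group mean. Its levels were 2.59, 1.74 and 1.95 in untreated liver, 2.59, 2.69 and 3.01 with AAV-GFP and 2.83, 3.13 and 3.61 with AAV-hGRβ. The neighbouring groups AAV-GFP and AAV-hGRβ overlapped, whereas each lay above all untreated arrays (AAV-GFP replicate 1 and untreated replicate 2 both round to 2.59). AAV-hGRβ exceeded untreated by 1.10 (SE 0.28, 95% interval 0.46 to 1.73), or 2.14-fold, and this missed the threshold (limma adjusted p = 0.0666). The difference was 1.52 on scan day 1 and 0.25 on day 2, and it passed without untreated replicate 2, the day 2 array of that group (limma adjusted p = 0.0306). It also passed when only probes well above background on all 9 arrays were tested, as the 1 of 8 members called there. Against AAV-GFP the Col3a1 difference was 0.43 (SE 0.28, limma adjusted p = 0.632), with 0.73 and -0.18 within the days, and AAV-GFP exceeded untreated by 0.67 (limma adjusted p = 0.485). Groups that do not overlap were found for 2 of 9 members, Col3a1 and Mmp13, in the comparison of AAV-hGRβ with untreated, against 29.3% of all genes, and for Col3a1 and Timp1 in that of AAV-GFP with untreated, against 14.9%. The other 2 Col3a1 probes were near background and were not tested.

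Tgfb1, the ligand that activates stellate cells, was nearly level across the groups. It gave -2.66, -2.43 and -2.85 in untreated liver, -2.67, -2.55 and -2.82 with AAV-GFP and -1.97, -2.88 and -2.42 with AAV-hGRβ. The AAV-hGRβ arrays held both the highest and the lowest value of the 9. The log2 difference from AAV-GFP was 0.26 (SE 0.24, 95% interval -0.29 to 0.80, limma adjusted p = 0.779), with -0.04 and 0.85 on the 2 scan days, and it was -0.66 under normexp correction.

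The differences of all members with their intervals are plotted for the 3 comparisons.

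**Figure D2:**
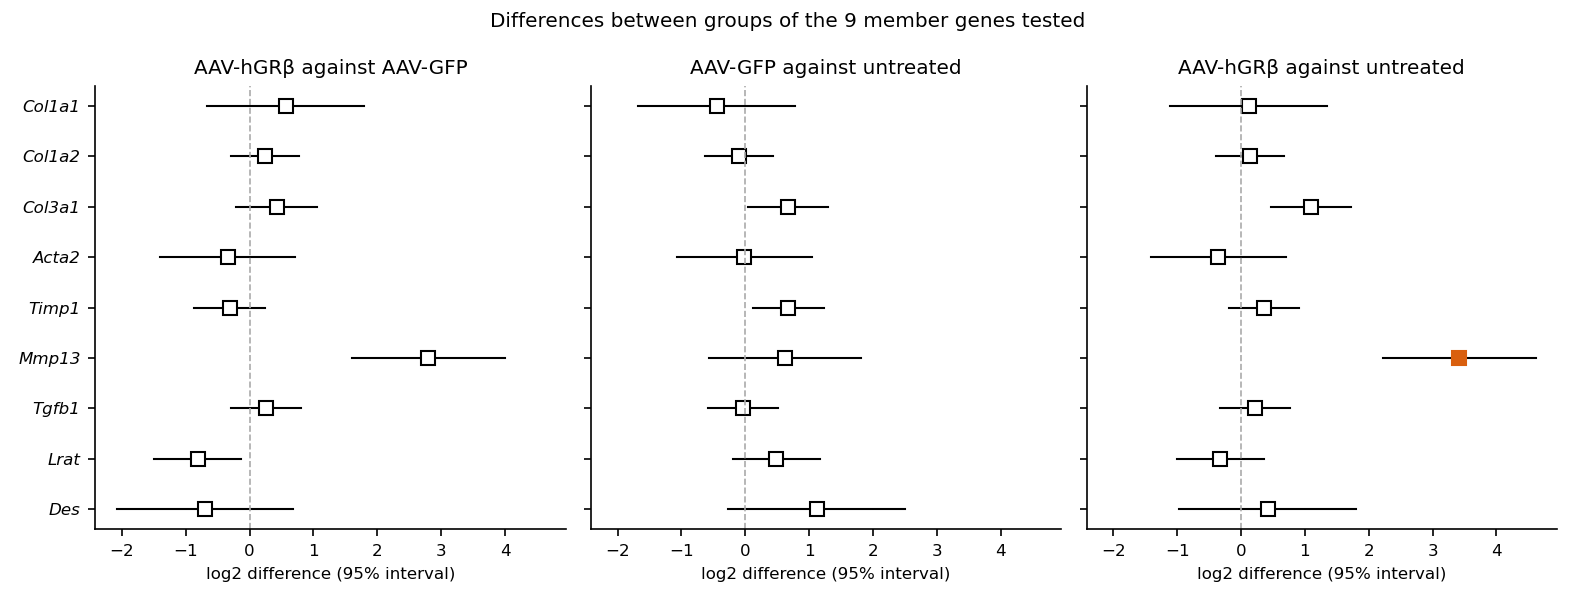
Log2 difference (squares) with its 95% interval from limma (lines) of the 9 member genes tested, in the 3 comparisons, which share groups. The filled square passed at an adjusted p under 0.05, and only Mmp13 against untreated, at 3.42, is filled.

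Markers of stellate cells and myofibroblasts gave no difference that passed with AAV-hGRβ. Acta2, the actin of contractile myofibroblasts and of vessel walls, was at 1.02, 1.68 and 1.66 in untreated liver, at 2.54, 1.35 and 0.43 with AAV-GFP and at 1.11, 0.87 and 1.33 with AAV-hGRβ. The AAV-hGRβ arrays lay within the range of the AAV-GFP arrays. The log2 difference between them was -0.34 (SE 0.46, 95% interval -1.40 to 0.71, limma adjusted p = 0.859), with -0.85 on scan day 1 and 0.67 on day 2, and 0.21 without AAV-GFP replicate 1. The Acta2 probes did not give the same direction. A_52_P420504, printed 10 times per array, gave -0.81 (SE 0.37, limma adjusted p = 0.481 over all probes), A_52_P210078 gave -0.92 and A_52_P239556 gave 1.14, and none passed. The latter 2 were dimmer and well above background on 5 and 7 of the 9 arrays. The main probe and A_52_P420504 were so on all 9, and both gave a difference below 0.

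Des, the desmin gene of stellate and muscle cells, was at -2.76, -3.77 and -3.86 in untreated liver, at -1.13, -3.18 and -2.73 with AAV-GFP and at -2.15, -3.94 and -3.05 with AAV-hGRβ. AAV-GFP replicate 1 was the highest array for Des as for Acta2. The mean of the 7 tested vascular smooth muscle markers was also highest there, at -1.43, against -2.24 to -1.76 on the other 8 arrays. The part of muscle from vessels in these values was not tested. The log2 difference of AAV-hGRβ from AAV-GFP was -0.70 (SE 0.61, 95% interval -2.08 to 0.68, limma adjusted p = 0.751), with -1.34 and 0.57 on the 2 scan days. The difference of AAV-GFP from untreated was 1.12 (SE 0.61, limma adjusted p = 0.485).

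Lrat, the retinol esterifying enzyme of resting stellate cells, was lowest in the AAV-hGRβ group. Its main probe gave 0.16, 0.16 and -0.18 in untreated liver, -0.07, 0.74 and 0.93 with AAV-GFP and -0.15, -0.73 and 0.05 with AAV-hGRβ. The groups overlapped through AAV-GFP replicate 1 alone. The log2 difference from AAV-GFP was -0.81 (SE 0.30, 95% interval -1.50 to -0.13, limma adjusted p = 0.324), with -0.68 on scan day 1 and -1.08 on day 2. The second probe, A_51_P350033, gave -0.78 (limma adjusted p = 0.528 over all probes). Against untreated liver the main probe gave -0.32 and the second 0.24, and neither passed, so the lower level held against AAV-GFP only as a difference that did not pass and had no common sign against untreated liver.

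**Figure D3:**
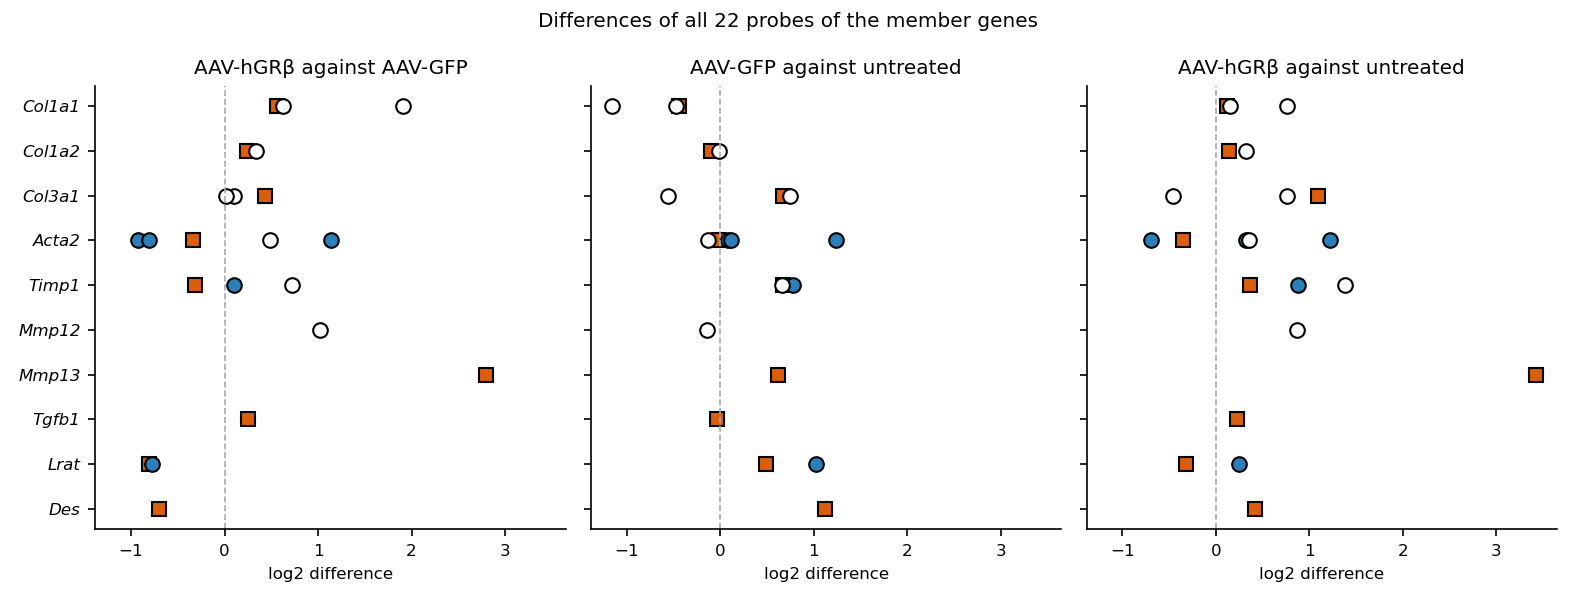
Log2 difference of each of the 22 probes of the member genes in the 3 comparisons. Squares are the probes that stand for a gene, filled circles are further probes that were tested, and open circles are probes that failed the filter on dim spots. Both Lrat probes lie near -0.8 against AAV-GFP, whereas the Acta2 probes lie on both sides of 0.

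Within the AAV-hGRβ group most members ranked the arrays alike. Replicate 2 was the lowest array of its group for 7 of the 9 tested members and replicate 3 for none, whereas replicate 3 was the highest for 6 of 9. The members in which replicate 2 was not the lowest were Col3a1 and Timp1. Replicate 3 also had the highest mean of the inflammation and interferon list (1.68) and replicate 2 the lowest of the group (0.74), against -1.06 to -0.75 on AAV-GFP arrays. Among the gene lists given below, replicate 2 had the lowest mean of the group in all but portal fibroblast, vascular smooth muscle, mesothelium and hepatocyte. Its low rank was thus not particular to the members or to inflammation. The share of all genes with such ranks was not determined. The shares of gene spots well above background were 82.0%, 60.5% and 68.4% for replicates 1, 2 and 3, and the part of signal quality in these ranks was not tested.

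**Figure D4:**
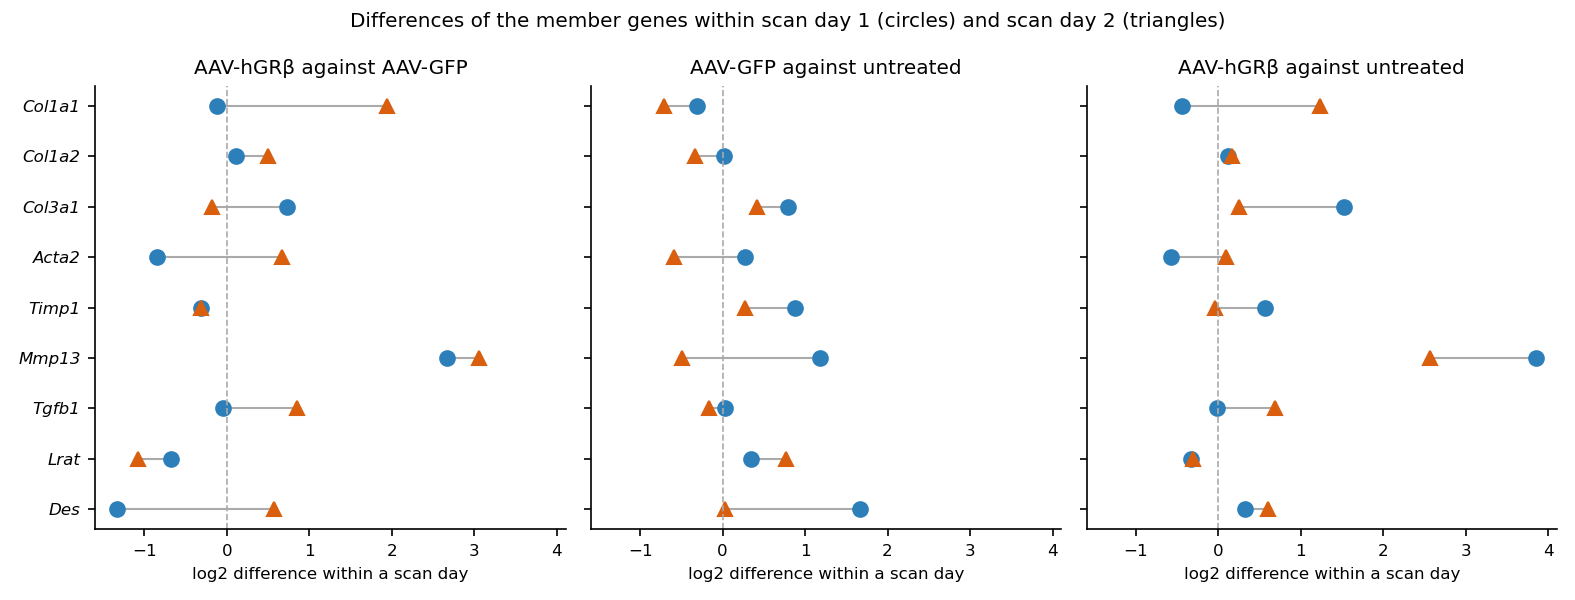
Log2 difference of the 9 tested members within scan day 1 (circles, 2 arrays per group) and within scan day 2 (triangles, 1 array per group), with no test. For AAV-hGRβ against AAV-GFP the days lie on opposite sides of 0 for Col1a1, Col3a1, Acta2, Tgfb1 and Des and on the same side for Col1a2, Timp1, Mmp13 and Lrat.

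Other genes of the matrix and of its turnover were read from lists of related genes, given as counts and medians beside 0.03, the median over all genes for AAV-hGRβ against AAV-GFP. Of 23 further collagens and scar matrix genes tested, 0 passed, with a median of 0.04, 12 above 0 and 11 below. The smallest p belonged to Col5a3, a minor fibrillar collagen (0.63, limma adjusted p = 0.376), and to Fn1, which encodes fibronectin (-0.71, limma adjusted p = 0.52). Of 14 basement membrane genes 0 passed (median -0.07), with Agrn, a heparan sulfate proteoglycan, at 0.58 and Col15a1 at 0.70. Of 14 collagen processing and crosslinking genes 0 passed (median -0.01), with Bmp1, a procollagen proteinase, at -0.46 and Plod3, a lysyl hydroxylase, at -0.35. These 3 lists stood close to the median of all genes and held 0 calls against AAV-GFP under each of 21 alternative settings. Against untreated liver they also held 0 calls in the fit described above, but not under every alternative. There up to 4 collagen and scar matrix genes were called higher and 1 lower. For collagen processing genes these counts reached 2 and 2, and up to 3 basement membrane genes were called lower.

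Genes of transforming growth factor β and of stellate cell growth gave no call against AAV-GFP either. Of 21 ligands, receptors and activators 0 passed (median -0.05), with the receptor gene Tgfbr2 at 0.51 and the activin subunit gene Inhba at -0.71. Of 16 response genes 0 passed (median 0.09). Nox4, an oxidase of activated stellate cells, gave -0.62 (limma adjusted p = 0.204). Of 11 growth factor genes 0 passed (median -0.05), with Pdgfc at 0.83 and Igf1 at -0.45. Against untreated liver Pdgfc, a growth factor for mesenchymal cells, rose by 1.28 (SE 0.26, limma adjusted p = 0.0408), a call that was lost in 6 of 9 fits that left out 1 array (limma adjusted p up to 0.178, without untreated replicate 3).

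Markers of stellate cell state were mixed. Of 20 markers of resting stellate cells 0 passed (median -0.13), with Reln, a secreted marker of these cells, at -0.69 and Tlcd4 at -0.35. Of 17 markers of activated stellate cells and myofibroblasts 1 passed, against 0.917% of all genes. That gene was S100a11, a calcium-binding protein that many cell types make. It rose from -0.08 ± 0.30 with AAV-GFP to 1.32 ± 0.24 with AAV-hGRβ (SD, n = 3), a difference of 1.41 (limma adjusted p = 0.0219). Against untreated liver S100a11 rose by 1.44, its relative S100a6 rose by 1.57, and Ddr2, a collagen receptor, fell by 0.98 (limma adjusted p = 0.0112, 0.0446 and 0.0497). With 1 array left out, the S100a11 call was lost in 5 of 9 fits against AAV-GFP (limma adjusted p up to 0.0989, without AAV-hGRβ replicate 3) and in 3 of 9 against untreated, that of S100a6 in 8 and that of Ddr2 in all 9. Against AAV-GFP S100a6 gave 0.81 and Ddr2 -0.61, and neither passed. Groups did not overlap between AAV-hGRβ and AAV-GFP for 7 of the 17, against 15.9% of all genes, with S100a11, S100a6, Vim and Cdh11 higher and Ddr2, Cnn1 and Myl9 lower, and of these S100a11 alone passed. Against untreated liver the median of the 17 was 0.40, beside 0.10 over all genes. In that comparison 7 of the 17 lay apart and higher and 3 apart and lower, against 29.3% of all genes in either direction.

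Further proteases and their inhibitors gave few calls. Of 17 other metalloproteinases 1 passed, against 0.917% of all genes. That gene was Mmp24, a membrane-bound enzyme, with 1.36 (limma adjusted p = 0.022). It was well above background on 1 of 3 AAV-GFP and 1 of 3 untreated arrays, so its probe was kept through the AAV-hGRβ group alone. Its differences in both comparisons depend on values near the detection limit, and that from AAV-GFP was -0.68 under normexp correction. The median of the list was -0.03. Against untreated liver Mmp24 rose by 1.45, with -0.44 under normexp correction, and with 1 array left out the 2 calls were lost in 7 and 3 of 9 fits (limma adjusted p up to 0.106 and 0.0636, without AAV-hGRβ replicate 3). Adam12, a metalloproteinase of mesenchymal cells, was low in both vector groups. It was at -1.55, -2.42 and -3.72 in untreated liver, at -6.81, -7.15 and -6.81 with AAV-GFP and at -5.81, -6.96 and -6.83 with AAV-hGRβ, and no array of either vector group was well above background. Its probe was therefore kept through the untreated group alone. With AAV-hGRβ Adam12 was at least 5.42-fold lower than in untreated liver (limma adjusted p = 0.00764). That call passed in 9 of 9 such fits (limma adjusted p up to 0.0495, without AAV-hGRβ replicate 3). The filter let the probe in through the group where it was high, so neither the test nor these fits are separate support. The comparison of AAV-GFP with untreated did not pass (limma adjusted p = 0.262). The log2 differences from untreated, both from dim values, were -3.97 with AAV-hGRβ and -4.36 with AAV-GFP. The unlike outcomes thus show no fall particular to AAV-hGRβ. The vector groups did not differ beyond the threshold (limma adjusted p = 0.852), and their difference was not given as a fold because both were dim. For such a bound, each array of the dimmer group was given the lowest signal among probes well above background, or the probe's own signal where that was higher, and the brighter group's mean was set against the mean of these values. Of 8 inhibitors 0 passed (median -0.17), with Reck, a membrane-anchored inhibitor, at -0.53. Of 11 plasminogen system and cathepsin genes 0 passed (median 0.38), with Plaur, the urokinase receptor, at 1.03 and Ctss, a cathepsin of macrophages, at 0.87. Against untreated liver Lgmn, a lysosomal endopeptidase, rose by 1.36 (limma adjusted p = 0.049), and lost its call in 6 of 9 such fits (limma adjusted p up to 0.201, without untreated replicate 4). Against AAV-GFP Lgmn gave 0.76 and did not pass.

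Most calls among these lists were of inflammation genes. Of 19 inflammation and interferon genes 11 rose against AAV-GFP, beside 0.84% of all genes. The median of the list was 1.89 (1.95 on scan day 1 and 1.93 on day 2), and all 19 were above 0. Irf7, a transcription factor of the interferon response, rose by 2.65, Ifit1 by 2.36 and Isg15 by 3.10, all 3 interferon-induced genes. Cd8a, a T cell coreceptor, was at least 12.6-fold higher, with all AAV-GFP arrays short of a signal well above background. No untreated array reached that signal either, so the Cd8a probe was kept through the AAV-hGRβ group alone. Cd3e, another T cell gene of the list, gave 0.02 (SE 0.47, limma adjusted p = 0.992). With 1 array left out the count of 11 was 3 without AAV-GFP replicate 1, 4 without AAV-hGRβ replicate 1, 5 without AAV-hGRβ replicate 3, 6 without untreated replicate 4, 7 without AAV-GFP replicate 2 or 3 and 8 to 11 otherwise, while the median stayed between 1.74 and 2.09. It was 0 without the 3 arrays of scan day 2, and without AAV-GFP replicate 1 the Isg15 call was lost (limma adjusted p = 0.0584). Of 15 markers of scar-associated and inflammatory macrophages 2 rose, beside 0.84% of all genes. They were Ly6c1 with 2.84 and Chil3 with 1.93, and the median of the list was 0.86. The Chil3 call was lost with any 1 of the 9 arrays left out (limma adjusted p up to 0.189, without AAV-GFP replicate 2), that of Ly6c1 with none. Chil3 encodes a secreted product of alternatively activated macrophages, and Ly6c1 is also made by endothelial cells. Of 12 Kupffer cell markers 0 passed (median 0.54), with Cd5l at 0.97 and Clec4f at 0.73. Against untreated liver 14 of 19, 7 of 15 and 2 of 12 rose in these 3 lists and 0 fell. Over all genes 2.59% rose and 0.792% fell in that comparison. Clec4f rose by 1.17 and Cd5l by 1.26. Their calls were lost in 6 and 7 of 9 fits with 1 array left out (limma adjusted p up to 0.156 and 0.182, without untreated replicate 4). The count of 14 fell to 7 without untreated replicate 3, untreated replicate 4 or AAV-hGRβ replicate 3. The count of 7 macrophage genes fell to 1 without those arrays, AAV-GFP replicate 2 or AAV-hGRβ replicate 2 (each left out alone), and to 3 without AAV-hGRβ replicate 1. The difference between these lists and the matrix lists was not tested, and the lists were chosen with earlier results of these data known. The mean macrophage list level was 0.50 to 1.21 on AAV-hGRβ arrays, above -0.12 to 0.05 with AAV-GFP and -0.71 to -0.10 untreated, and its part in the Mmp13 difference was not tested.

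Markers of the other cells that could carry these genes gave no call against AAV-GFP. Of 10 portal fibroblast markers 0 passed (median 0.27), with Clec3b at 1.12 and Thy1 at 0.68. Of 7 smooth muscle markers 0 passed (median -0.17), with Lmod1 at -0.52 and Mylk at -0.34. Of 8 mesothelial markers only 2 were tested and 0 passed, with Krt8 at 0.11 and Gpm6a at 0.13, so this list says little about mesothelial cells. Of 8 cholangiocyte markers 0 passed (median 0.06), with Spp1 at 0.34 and Sox9 at 0.43. Of 11 endothelial markers 0 passed (median -0.25, all below 0), with Tek at -0.88 and Clec4g at -0.60. Of 11 hepatocyte markers 0 passed (median -0.30), with Trf at -0.47 and Apoa1 at -0.56.

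**Figure D5:**
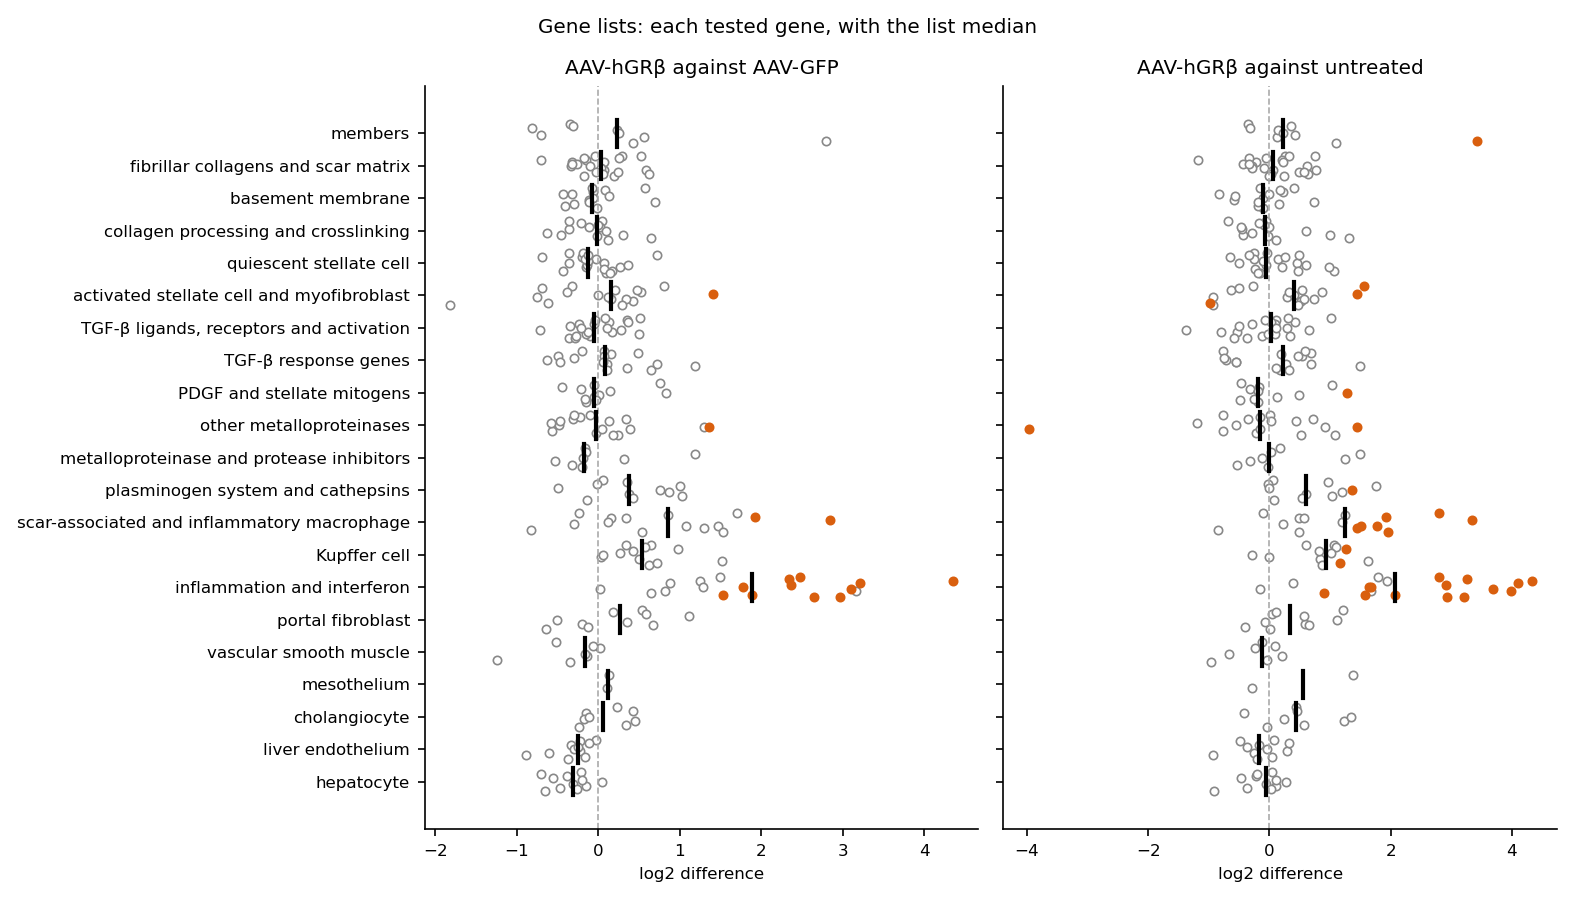
Log2 difference of each tested gene (points) by gene list, for AAV-hGRβ against AAV-GFP and against untreated, with the list median as a black bar. Filled points passed at an adjusted p under 0.05 over all genes. Against AAV-GFP the matrix, stellate cell and transforming growth factor β lists centre near 0, with medians from -0.13 to 0.16, and the inflammation and interferon list has a median of 1.89. Against untreated liver the median is 0.40 for the activated stellate cell and myofibroblast list and 0.23 for the transforming growth factor β response list. It is 0.10 over all genes and 2.07 for the inflammation and interferon list.

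The tested genes whose levels followed a member most closely over the 9 arrays were named as a description, with no p. Among 13585 genes, those nearest to Col1a1 were Lacc1 (Pearson r = 0.958), Ucp2 (0.948), Pomk (0.945), Zbtb45 (0.933) and Smox (0.928). Those nearest to Timp1 were Sult4a1 (0.965), Apc (0.963), Olfr411 (0.962), Olfr668 (0.958) and Pcdhga4 (0.957). Collagen or protease genes were not among these 10, and all points share arrays, scan days and scaling. These r are the highest of a search over 13585 genes on 9 arrays. The r that such a search gives for unrelated genes was not determined.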

How the data were processed

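RNA of 9 mouse liver samples was hybridised to single-colour arrays. Per the file headers, each deposited value was a linear spot intensity from which the scanner software had taken the background and a spatial trend, array by array and unscaled between arrays. The submitters' processing notes name Agilent Feature Extraction 9.5. Columns other than intensity, such as flags, probe names and positions on build mm7, were used as the deposited array files give them.

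Control spots and outlier spots were left out, spots of a probe were averaged, and log2 intensity was set against the array's 75th percentile. A probe was kept if all 3 arrays of any group had it well above background (24273 of 41174), 14 of the 22 member probes among them. A gene was represented by its kept probe of highest mean level. All 16792 genes were fitted over 9 arrays in R 4.3.3 by lmFit and eBayes of limma 3.58.1 (6 residual degrees of freedom, two-sided, Benjamini-Hochberg at 0.05 within each of 3 comparisons). The SEs, intervals and p-values of that fit take no account of slide. With slide as a random block the estimated correlation of arrays within a slide was 0.465. Member probes were also fitted over all kept probes. The fit was tested on simulated data. Names came from a RefSeq table of GRCm38.p6, used for names only. Precision is limited by the number of arrays, 3 in each group.

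The members, the 20 lists of related genes (306 of 309 genes on the array, 261 tested) and the tests were chosen with earlier results of these data known. From each list the text names up to 4 genes that passed with the smallest p, and, for AAV-hGRβ against AAV-GFP only, up to 2 with the smallest p where none passed. The values of 1 gene that this rule named are not reported here, and it remains in its lists' counts and medians. Cd3e was named beside Cd8a outside this rule and was not followed through the alternatives. The 5 genes nearest to Col1a1 and to Timp1 by Pearson correlation were also named. Alternatives changed the background correction, scaling, filter, choice of probe, arrays fitted, and scan day, slide or replicate number as a block. The 2 scan days and 5 slides are those in the array files.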

Additional observations from a re-analysis of the deposited data

How the results depend on the processing

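Member calls were few and moved with the settings. Against AAV-GFP, 1 member (Mmp13) was called with median scaling, with only the 6 arrays compared and with scan day as a block, and 0 to 1 with 1 array left out. Against untreated liver, 0 were called with normexp correction, no filter on dim probes, slide as a random block and the replicate block, 2 with bright local backgrounds replaced or the scan day 2 arrays left out, and 0 to 2 with 1 array left out. With only probes well above background on all 9 arrays, Mmp13 was not tested and 1 of 8 members was called, Col3a1. The genes called against AAV-GFP numbered 14 with normexp, 95 with median scaling, 30 without a filter, 77 with the 6 arrays compared, 260 with scan day as a block, 75 with slide as a random block, 3 without the scan day 2 arrays, and 33 to 162 with 1 array left out. Against untreated liver they numbered 45 with normexp, 917 with bright backgrounds replaced, 85 without a filter, 324 with the 6 arrays compared, 1256 with scan day as a block, 58 with slide as a random block, 4719 without the scan day 2 arrays, and 96 to 2046 with 1 array left out. Between AAV-GFP and untreated they numbered 4 with median scaling, 1 each with quantile normalization, scan day as a block and the scan day 2 arrays left out, and 0 to 3 with 1 array left out. The replacement of bright backgrounds and the omission of scan day 2 were chosen after seeing the data. Whether replicate numbers pair the samples could not be decided. Deviations of same-numbered arrays correlated at -0.32 to 0.24, but most of these pairs were scanned on different days. AAV-GFP replicate 3 and untreated replicate 2, of the same day, correlated at 0.57. The replicate block gave 2 calls against AAV-GFP and 1 against untreated. The cause of these shifts was not tested, apart from the fewer arrays fitted.

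Differences whose sign turned were all of values that had not passed, except Mmp24. With normexp correction Col1a1 gave -0.18, Timp1 0.13, Tgfb1 -0.66, Col15a1 -0.15, Bmp1 0.14, Tlcd4 0.27, Igf1 0.29, Mmp24 -0.68, Plaur -0.46, Clec3b -0.39, Mylk 0.15, Gpm6a -0.95, Clec4g 0.14, Trf 0.25 and Apoa1 0.19 against AAV-GFP. Against untreated it gave Col1a1 -0.23, Tgfb1 -0.50, Des -0.50 and Mmp24 -0.44, and AAV-GFP against untreated gave Acta2 0.082 and Tgfb1 0.17. With bright backgrounds replaced Gpm6a gave -0.058 against AAV-GFP, and Acta2 0.040 and Tgfb1 0.042 between AAV-GFP and untreated. Median scaling gave Spp1 -0.0049, Tgfb1 -0.089, Col1a2 -0.11, Gpm6a -0.21 and Krt8 -0.23 against AAV-GFP, and Tgfb1 -0.12, Col1a2 -0.20 and Col1a1 -0.22 against untreated. Quantile normalization gave Gpm6a -0.089. The mean over a gene's probes gave Gpm6a -0.020 against AAV-GFP and Acta2 0.12 against untreated, with 0.36 for AAV-GFP against untreated. Slide as a random block gave Acta2 0.031 against AAV-GFP, and the replicate block gave Col1a1 -0.030 and Des -0.31 against untreated. Without the scan day 2 arrays Col1a1 gave -0.12, Tgfb1 -0.042, Krt8 -0.21 and Gpm6a -0.53 against AAV-GFP, Col1a1 -0.44 and Tgfb1 -0.012 against untreated, and Col1a2 0.015, Tgfb1 0.030 and Acta2 0.27 for AAV-GFP against untreated. With 1 array left out, the ranges against AAV-GFP were -0.84 to 0.21 for Acta2, -0.060 to 0.21 for Krt8 and -0.25 to 0.53 for Gpm6a. Against untreated they were -0.18 to 0.70 for Col1a1, -0.068 to 0.37 for Col1a2, -0.0056 to 0.45 for Tgfb1 and -0.027 to 0.86 for Des, and for AAV-GFP against untreated -0.21 to 0.0060 for Col1a2, -0.56 to 0.49 for Acta2 and -0.14 to 0.074 for Tgfb1. Of 8 calls of named genes against AAV-GFP and 18 against untreated, none were lost with scan day as a block, 5 and 14 with normexp, 4 and 12 without a filter, 3 and 7 with median scaling, 1 and 12 with slide as a random block, 8 and 1 without the scan day 2 arrays, and all with the replicate block. Signal near background limits Mmp12, Mmp13 outside the AAV-hGRβ group and the Timp1 probe A_51_P512379. On some arrays it also limits the Acta2 probes A_52_P210078 and A_52_P239556 and the Timp1 probe A_51_P512384.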
